A study of Mus musculus with 2 samples.

Results

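A set of 8 pancreas-enriched microRNAs was examined in the small RNA of serum extracellular vesicles (EVs), the membrane particles that cells shed into the blood. They were taken by name from the 1847 mature mouse miRNAs listed in both tables, and all 8 were found. The islet group held mmu-miR-375-3p, mmu-miR-375-5p, mmu-miR-7a-5p and mmu-miR-7a-1-3p, and the acinar group held mmu-miR-216a-5p, mmu-miR-216b-5p, mmu-miR-216c-3p and mmu-miR-217-5p. The study compared male control mice (genotype label WT; floxed Insr without Cre in the methods of the study) with iFIRKO mice (Adipoq-CreERT2; Insr flox/flox), in which Cre is driven in adipocytes and removes the insulin receptor once tamoxifen is given. Both groups, 7 weeks old, received tamoxifen at 100 mg/kg on 5 consecutive days and were sampled on day 3 after the last dose. Each group had 1 library made from the pooled serum of several mice, so the comparison has no replicate check, no test between genotypes could be made, and every ratio below compares 2 libraries. No miRNA reports on the loss of Insr, so the tables hold no direct check of the labels. For most miRNAs, and for the erythroid miR-144-3p and miR-451a, the deposited labels give the direction opposite to the one the study describes. It is therefore uncertain which table belongs to which genotype. Directions follow the labels as given, and the control and the iFIRKO library are the libraries so labelled. Were the tables exchanged, every ratio would turn into its inverse, whereas the counts, the levels within a library and the order of the members would stay.

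miR-375 is strongly enriched in the pancreatic islet. It is made in beta cells and in other endocrine cells of the islet, where it restrains insulin secretion and is needed for a normal beta cell mass, and it is also made in the gut and the pituitary. miR-7a is a second endocrine miRNA that dampens secretion and beta cell growth, and it is abundant in the brain and pituitary as well. miR-216a, miR-216b and miR-217 belong to the exocrine acinar cells that make digestive enzymes, and in blood they have been followed as signs of acinar damage. The Adipoq promoter is active in adipocytes and not in islet or acinar cells.

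The mature sequences show which of the 8 can share targets, since a miRNA recognises its targets mainly through the seed. They are given 5′ to 3′ from RefSeq (GRCm38.p6), with the seed (bases 2 to 8) in capitals, and miR-7b-5p is added as the close relative of miR-7a-5p. A RefSeq sequence was matched for 7 of the 8 members, and mmu-miR-375-3p had none.
mmu-miR-375-5p: gCGACGAGccccucgcacaaac
mmu-miR-7a-5p: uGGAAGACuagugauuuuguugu
mmu-miR-7b-5p: uGGAAGACuugugauuuuguuguu
mmu-miR-7a-1-3p: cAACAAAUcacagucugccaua
mmu-miR-216a-5p: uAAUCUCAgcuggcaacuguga
mmu-miR-216b-5p: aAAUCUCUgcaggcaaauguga
mmu-miR-216c-3p: uUUGCCUGcagagauuucccagu
mmu-miR-217-5p: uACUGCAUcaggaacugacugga

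The members with a sequence had 7 different seeds. Only the seed of miR-7a-5p was carried by another listed miRNA, miR-7b-5p, which differs from it by A10U (counted from 1 at the 5′ end of miR-7a-5p) and by 1 more base at the 3′ end. miR-216a-5p and miR-216b-5p differ by U1A, A8U, U11A and C17A, and the second of these changes the last base of the seed. The 7 sequences were 22 or 23 bases long, so counts of different members were compared without dividing by length. GC content ran from 34.8% in miR-7a-5p to 68.2% in miR-375-5p.

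The 4 acinar miRNAs come from 1 stretch of chromosome 11. In GRCm38 (mm10), Mir216b lies at chr11:28746191-28746276, Mir216a at chr11:28757012-28757083 and Mir217 at chr11:28763728-28763835, all on the plus strand and within 17645 bases. Mir216a and Mir217 are in introns of the long non-coding RNA Gm12082. Mir216c (chr11:28746198-28746266) is the same stretch as Mir216b read from the minus strand, and miR-216c-3p overlaps miR-216b-5p over 17 bases of opposite strands. Strand therefore separates their reads, but how the authors assigned reads to each was not stated. The hairpins on the plus strand are shown with both mature arms in capitals, the 5p arm first.
Mir216a: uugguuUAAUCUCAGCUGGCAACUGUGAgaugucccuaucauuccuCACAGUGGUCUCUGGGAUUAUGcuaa
Mir216b: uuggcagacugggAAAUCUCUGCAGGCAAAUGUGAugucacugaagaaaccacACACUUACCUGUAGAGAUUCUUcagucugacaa
Mir217: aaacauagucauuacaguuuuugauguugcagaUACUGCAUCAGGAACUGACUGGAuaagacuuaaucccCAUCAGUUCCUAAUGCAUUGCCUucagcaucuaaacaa

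The islet miRNAs are dispersed. Mir375 lies at chr1:74900658-74900721 on the minus strand and overlaps no other annotated gene. miR-7a-5p is encoded by Mir7-1, in an intron of Hnrnpk (chr13:58392779-58392886, minus strand), and by Mir7-2, which overlaps no other gene (chr7:78888277-78888373, plus strand), so its counts cannot be assigned to 1 locus. miR-7a-1-3p comes from Mir7-1 alone.

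Levels are given as counts and as counts per 1000000 of the library (CPM). The depth was 3817902 counts in the control library and 2233498 in the iFIRKO library. The lowest value in each table stands for fewer than 10 counts, which is under 2.62 CPM in the control library and under 4.48 CPM in the iFIRKO library, and such a value is called the floor. A miRNA with 10 or more counts in each library is called counted in both. Intervals are 95% intervals that cover counting error only. Together the 8 members made up 0.0671% of the control library (2561 counts) and 0.0635% of the iFIRKO library (1418 counts). More or fewer vesicles from a cell type and more or fewer copies per vesicle cannot be told apart in such shares.

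Among the pancreas miRNAs, miR-7a-5p and miR-375-3p carried most of the counts. miR-7a-5p had 1540 counts in the control library (403 CPM, 95% interval 384 to 424) and 694 in the iFIRKO library (311 CPM, 288 to 335), ranks 108 and 121 of 1847. miR-375-3p had 725 counts (190 CPM, 177 to 204) and 464 counts (208 CPM, 190 to 228), ranks 151 and 147. These 2 miRNAs held 88.4% of the members' counts in the control library and 81.7% in the iFIRKO library. The intervals of miR-7a-5p did not overlap between the libraries, whereas those of miR-375-3p did. How often intervals fail to overlap among all miRNAs was not counted, so this does not set miR-7a-5p apart.

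The acinar miRNAs were rarer. miR-217-5p, which targets Sirt1 among others, had 99 counts in the control library (25.9 CPM, 21.3 to 31.6) and 98 in the iFIRKO library (43.9 CPM, 36.0 to 53.5). miR-216a-5p had 87 counts (22.8 CPM, 18.5 to 28.1) and 78 counts (34.9 CPM, 28.0 to 43.6). Within each library the intervals of these neighbours overlapped, so their order was not resolved. Between the libraries the intervals of miR-217-5p did not overlap and those of miR-216a-5p did. How often this happens among all miRNAs was not counted, so it does not set miR-217-5p apart either. miR-216c-3p had 32 counts (8.38 CPM, 5.94 to 11.8) and 11 counts (4.93 CPM, 2.75 to 8.82), and miR-216b-5p was at the floor in the control library and had 10 counts in the iFIRKO library (4.48 CPM, 2.43 to 8.24).

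The passenger arms of the islet hairpins were likewise rare. miR-7a-1-3p had 64 counts (16.8 CPM, 13.1 to 21.4) and 45 counts (20.1 CPM, 15.1 to 27.0). miR-375-5p had 13 counts (3.41 CPM, 1.99 to 5.83) and 18 counts (8.06 CPM, 5.10 to 12.7). In both libraries the order was miR-7a-5p, miR-375-3p, miR-217-5p, miR-216a-5p and miR-7a-1-3p, and in the control library the intervals of the last 3 overlapped. In the iFIRKO library miR-7a-1-3p lay below the interval of miR-216a-5p. Below these, miR-216c-3p came before miR-375-5p in the control library and after it in the iFIRKO library, with overlapping intervals in the iFIRKO library.

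**Figure D1:**
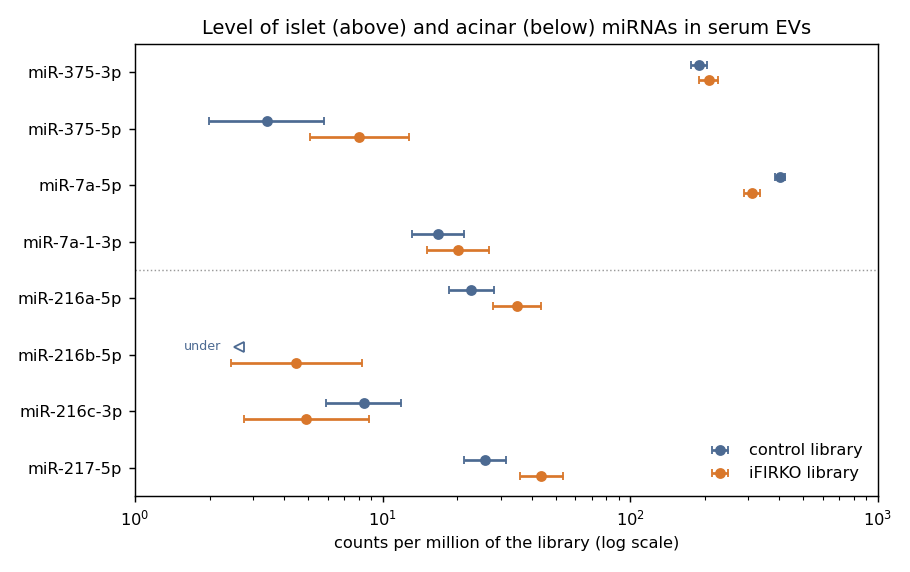
Level of each miRNA in the control and the iFIRKO library (CPM, log scale), with points for the library and bars for the 95% Wilson interval of counting error; the open triangle marks a value at the floor, under 2.62 CPM. miR-7a-5p and miR-375-3p stand at 190 to 403 CPM, and every other one lies at or under 43.9 CPM.

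The question of the comparison was which EV miRNAs change when adipocytes lose the insulin receptor. On the deposited scale, 4 of the 8 pancreas miRNAs passed 1.5-fold, the threshold of the study, in the direction of the iFIRKO library, against 66.3% of all 1847 miRNAs. In these counts a floor value was used as deposited. Of the 8, 1 (miR-216c-3p) was over 1.5-fold lower, against 3.03% of all miRNAs. With the tables exchanged, 1 of the 8 would be higher and 4 lower, against 3.03% and 66.3%. Without miR-216b-5p, which was at the floor in the control library, 3 of 7 members were higher and 1 was lower, against 66.2% and 1.21% of the 1736 miRNAs counted in both. At a 2-fold threshold 2 members were higher and 0 were lower, against 43.0% and 2.11% of all miRNAs, and of these miR-375-5p had a measured ratio and miR-216b-5p passed only by its floor value. The 7 members had a median log2 ratio of 0.27, and the 1736 miRNAs one of 0.87.

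Of the islet miRNAs, miR-7a-5p was lower in the iFIRKO library, with a ratio of iFIRKO to control of 0.770 (95% interval 0.703 to 0.843). miR-375-3p had a ratio of 1.09, with an interval that included 1 (0.972 to 1.23). Neither passed 1.5-fold. Among the 420 miRNAs averaging 100 counts or more, 34.5% passed it upwards and 4.29% downwards. Among the 118 averaging 1000 or more, as miR-7a-5p did, the 90th percentile of the log2 ratio was 0.31, which is under 1.5-fold. The ratio of miR-7a-1-3p was 1.20 (0.802 to 1.79), and that of miR-375-5p was 2.37 (1.10 to 5.25) from 13 and 18 counts. The 4 islet miRNAs summed to 613 CPM in the control library and 547 CPM in the iFIRKO library, a ratio of 0.891 (0.831 to 0.955), and miR-7a-5p held 403 and 311 CPM of these sums.

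The acinar miRNAs from the plus strand had higher shares in the iFIRKO library on the deposited scale, though not with TMM scaling. The ratio was 1.69 for miR-217-5p (1.27 to 2.26) and 1.53 for miR-216a-5p (1.11 to 2.10). miR-216b-5p was at least 1.71-fold higher, a bound that any miRNA at the floor in the control library and at 10 counts in the iFIRKO library has, since the depths differ. miR-216c-3p, from the minus strand, had a ratio of 0.588, and its interval (0.267 to 1.20) included 1. The summed acinar miRNAs had a ratio of 1.54 (1.26 to 1.87), 57.4 CPM against 88.2 CPM. It was 1.48 with the floor value counted as 10 and 1.47 without miR-216b-5p.

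Because rare miRNAs had higher ratios than abundant ones throughout the tables, each member was also set beside the miRNAs of its abundance class. Among miRNAs counted in both, the median log2 ratio was 0.98 for the 1317 that averaged 10 to 100 counts, 0.52 for the 301 from 100 to 1000 and -0.070 for the 118 of 1000 or more. Of the 7 members, 6 lay below the median of their class and 1, miR-375-5p, above it. Each class spans a wide range of counts, and the trend within a class was not removed. A place below the class median is therefore not a place below miRNAs of equal abundance. miR-217-5p and miR-216a-5p, which were higher as deposited, differed from the median of their class by -0.23 and -0.37 on the log2 scale. In that class 76.3% of the miRNAs were over 1.5-fold higher, and 3 of the 5 members in it were.

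miR-216c-3p stood apart from its class. Only 0.228% of the class from 10 to 100 counts was over 1.5-fold lower, which is 3 miRNAs, and miR-216c-3p was the second lowest of the 1317. The other two, named after their values were seen, were miR-374b-5p (ratio 0.488) and miR-6945-5p (ratio 0.648). Rare miRNAs that fell to the floor in the iFIRKO library are left out of this class, so its lower end is cut short, and miR-216c-3p, with 11 counts there, was 1 count above the lowest count that is kept. miR-7a-1-3p was also low in the class, with 114 of 1317 miRNAs below it. Of the abundant members, miR-375-3p had 85 of 301 miRNAs of its class below it, and miR-7a-5p had 32 of 118.

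**Figure D2:**
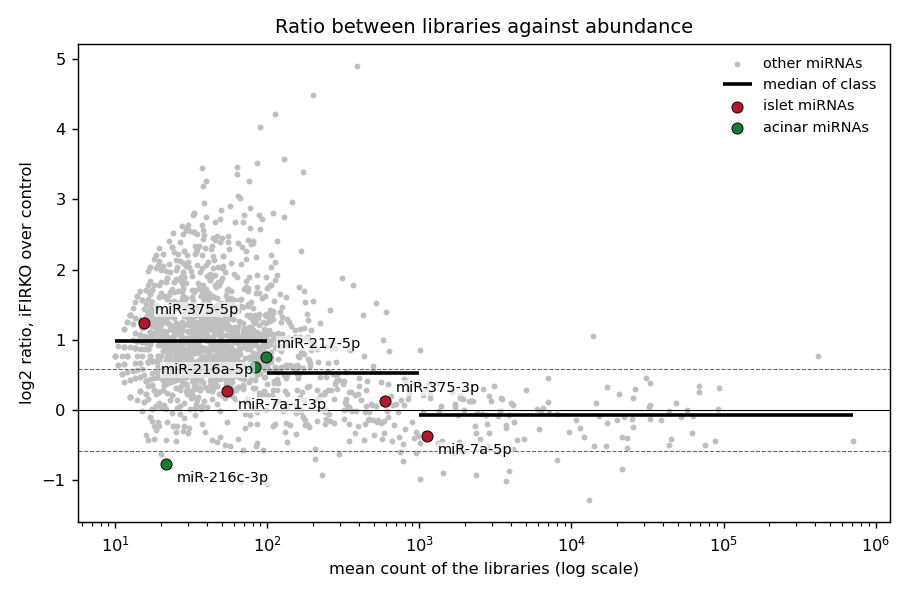
Log2 ratio of iFIRKO to control against the mean count (log scale) for the 1736 miRNAs counted in both (miR-216b-5p, at the floor, is not drawn), with islet miRNAs in red, acinar miRNAs in green, thick lines for the median of each abundance class and dashed lines at 1.5-fold. Of the 7 members, 6 lie under the line of their class, and miR-216c-3p, at -0.77, lies among the lowest of the rare miRNAs.

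For some members, though not for miR-7a-5p, miR-216c-3p and miR-375-5p, the side of 1 on which the ratio lay depended on the scaling. Setting miR-148a-3p (ratio 1.16, the reference of the study) equal left 2 members over 1.5-fold higher and 2 lower, against 54.2% and 5.52% of all miRNAs. Centring on the median ratio of miRNAs averaging 100 counts or more, 2 were higher and 2 were lower, against 51.8% and 6.12%. TMM scaling, which divides every ratio by 1.81, left 1 member higher and 4 lower, against 21.0% and 19.5%. In each of these counts 1 of the higher members was miR-216b-5p by its floor value, whose bounds were 1.47, 1.42 and 0.946, so with TMM no member counted in both was over 1.5-fold higher. miR-7a-5p stayed below 1 with all 3 scalings, at 0.662, 0.641 and 0.426 in the order given. The ratio of miR-375-3p went from 1.09 to 0.910 with the median ratio and 0.605 with TMM, that of miR-217-5p from 1.69 to 1.45, 1.41 and 0.936, and that of miR-216a-5p from 1.53 to 1.32, 1.27 and 0.848, so the direction of each of these 3 depended on the scaling. With TMM the intervals of miR-217-5p (0.701 to 1.25) and miR-216a-5p (0.616 to 1.16) included 1, so neither was resolved as lower. The interval of miR-7a-5p excluded 1 with every scaling. That of miR-375-5p included 1 with miR-148a-3p (0.942 to 4.51), the median ratio (0.912 to 4.37) and TMM (0.607 to 2.91). That of miR-216c-3p included 1 as deposited (0.267 to 1.20) and with miR-148a-3p (0.229 to 1.03).

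**Figure D3:**
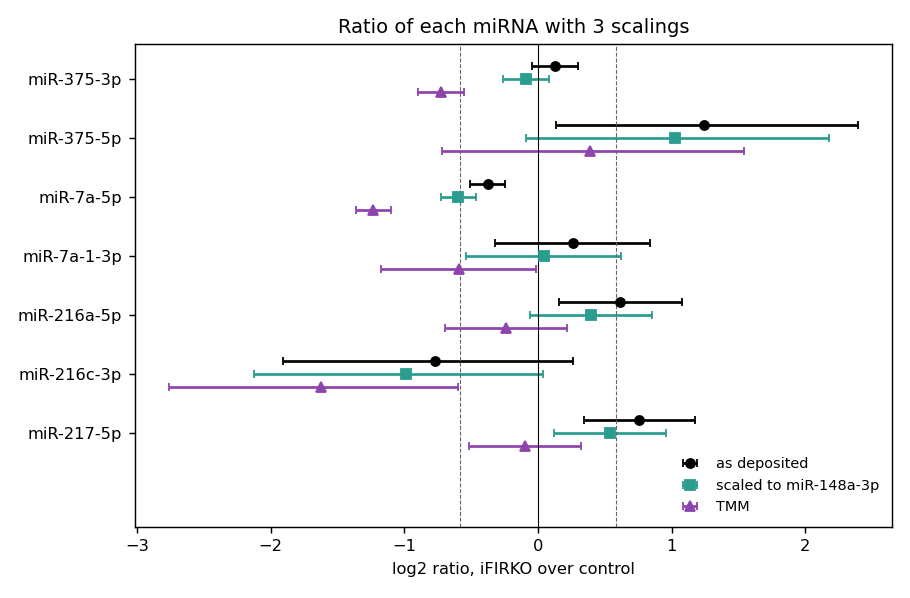
Log2 ratio of iFIRKO to control for the 7 members counted in both, as deposited (circles), scaled to miR-148a-3p (squares) and with TMM (triangles), with 95% intervals of counting error and dashed lines at 1.5-fold. miR-7a-5p and miR-216c-3p are under 0 with each of the 3, and miR-375-5p is above 0 with each. The interval of miR-216c-3p includes 0 as deposited and with miR-148a-3p, and that of miR-375-5p with miR-148a-3p and with TMM.

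Quotients between miRNAs of the same library do not depend on scaling, and 16 were computed, 3 of them with a bound in the control library. miR-7a-5p outnumbered miR-375-3p by 2.12 in the control library (1.94 to 2.32) and by 1.496 in the iFIRKO library (1.33 to 1.69), a change of 0.704 (0.606 to 0.818). The summed islet miRNAs outnumbered the acinar miRNAs above the floor by 10.7 (9.35 to 12.4) and by 6.53 (5.59 to 7.66). The change in that quotient was 0.608 (0.491 to 0.752). miR-7a-5p over miR-217-5p went from 15.6 to 7.08 and miR-375-3p over miR-217-5p from 7.32 to 4.73. The medians of the abundance classes moved alike: the class of at least 1000 counts against that from 10 to 100 gave 0.481, and miR-7a-5p against miR-217-5p gave 0.455 (0.336 to 0.618). For miR-375-3p against miR-217-5p the change was 0.647 (0.472 to 0.886), where the classes gave 0.726, and for miR-7a-5p against miR-375-3p the classes gave 0.663, inside its interval.

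The paralogs that share a seed had ratios on different sides of 1 on the deposited scale. miR-7b-5p had 91 counts in the control library (23.8 CPM) and 92 in the iFIRKO library (41.2 CPM), a ratio of 1.73 (1.28 to 2.33), against 0.770 for miR-7a-5p. The quotient of miR-7a-5p over miR-7b-5p was 16.9 (13.7 to 21.1) and 7.54 (6.06 to 9.48), a change of 0.446 (0.325 to 0.611), and the 0.481 of their abundance classes lay inside this interval. The ratio of miR-7b-5p was just below the 1.81 that TMM divides by, and its interval included 1.81. With TMM both ratios were thus below 1, but only that of miR-7a-5p was resolved as lower.

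Arms of the same hairpin were compared next. In Mir375 the 3p arm outnumbered the 5p arm by 55.8 (32.4 to 105.2) in the control library and by 25.8 (16.1 to 43.9) in the iFIRKO library, and the interval of the change reached 1 (0.462, 0.206 to 1.01). In Mir217 the 5p arm led by 7.62 (4.25 to 14.8) and by 4.67 (2.89 to 7.87), where miR-217-3p had 13 and 21 counts. Both hairpins kept their leading arm. In Mir216a the 5p arm led by at least 8.70 in the control library, where miR-216a-3p was at the floor, and by 6.50 (3.52 to 13.1) in the iFIRKO library, where it had 12 counts. miR-216a-5p was thus also the leading arm in both libraries.

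In Mir216b and Mir216c, 1 arm or the other was at the floor in the control library and the lead was less clear. miR-216b-3p had 13 and 17 counts, more than miR-216b-5p in both libraries, though the interval of the quotient in the iFIRKO library (1.70, 0.735 to 4.15) included 1. miR-216c-3p led miR-216c-5p by at least 3.20 in the control library, where miR-216c-5p was at the floor. In the iFIRKO library miR-216c-5p had 21 counts and miR-216c-3p 11, a quotient of 3p over 5p of 0.524 (0.228 to 1.14). Both arms rest on few counts. miR-216c-3p also lost ground to its neighbour miR-217-5p of the same abundance class, from 0.323 (0.210 to 0.486) to 0.112 (0.0543 to 0.210), a change of 0.347 (0.150 to 0.759). This pair was picked after the values of miR-216c-3p were known.

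**Figure D4:**
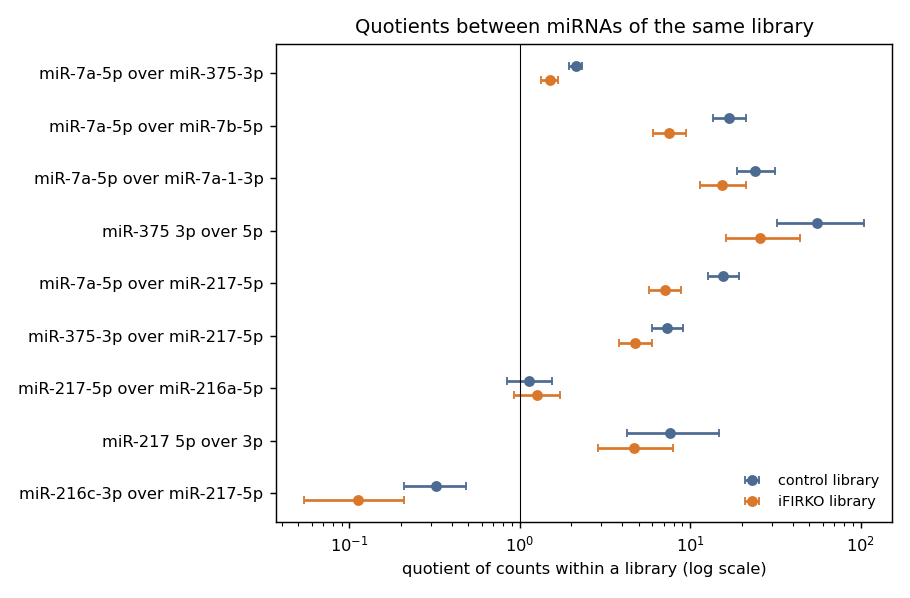
Quotient of counts between miRNAs of the same library (log scale) in the control and the iFIRKO library, with 95% exact intervals of counting error. miR-7a-5p over miR-7b-5p moves from 16.9 to 7.54, whereas miR-217-5p over miR-216a-5p stays near 1 (1.14 and 1.26).

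Of the 7 other arms and paralogs, 6 passed 1.5-fold in the direction of the iFIRKO library and 0 in the other. The shares of all miRNAs were 66.3% and 3.03%. Of the 6, 2 were at the floor in the control library, and their bounds were also past 1.5-fold. The 5 counted in both (miR-7a-2-3p, miR-7b-5p, miR-7b-3p, miR-216b-3p and miR-217-3p) had log2 ratios from 0.38 to 1.47 with a median of 0.98, beside a median of 0.98 for miRNAs of 10 to 100 counts. The remaining 2 (miR-216a-3p and miR-216c-5p) were at the floor in the control library, with bounds of at least 2.05-fold and at least 3.59-fold.

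Lists from tissues that also make some members were set beside them, and their counts past 1.5-fold are to be read against the 66.3% higher and 3.03% lower of all miRNAs. These shares depend on abundance. Among miRNAs averaging 100 counts or more, as all 8 of the gut and epithelial list did, 34.5% were higher and 4.29% lower. The 5 other islet miRNAs had log2 ratios from 0.015 to 1.38, a median of 0.37, and 2 of 5 over 1.5-fold higher (miR-184-3p at 1.52 and miR-212-3p at 2.60, named after their values were seen). The most abundant were miR-802-5p (ratio 1.29), miR-338-3p (1.12) and miR-132-3p (1.01). Of the 6 miRNAs of brain and neuroendocrine cells, which also make miR-7a, 3 were over 1.5-fold higher and 0 lower, the median log2 ratio was 0.62, and the most abundant were miR-128-3p (1.23), miR-137-3p (1.74) and miR-9-5p (1.19). The other two that passed, again named afterwards, were miR-124-3p, a defining neuronal miRNA with 16 and 33 counts (4.19 and 14.8 CPM, ratio 3.53), and miR-153-3p (2.10). The 8 miRNAs of gut and other epithelia, the former a source of miR-375, had 0 past 1.5-fold in either direction and a median log2 ratio of -0.086, and they summed to 12835 and 16740 CPM, with miR-192-5p (1.36), miR-194-5p (1.37) and miR-215-5p (1.06) the most abundant. These 3 are hepatic miRNAs as well, and miR-192-5p alone held 9055 and 12355 CPM of the sums. The other 5 (miR-200a-3p, miR-200b-3p, miR-200c-3p, miR-141-3p and miR-429-3p) had ratios below 1, from 0.783 to 0.978. With TMM the counts higher and lower were 3 and 0 of the 7 other arms and paralogs, 0 and 2 of the 5 other islet, 1 and 1 of the 6 brain, and 0 and 6 of the 8 gut miRNAs, beside 21.0% and 19.5% of all miRNAs. Of the 3 other arms, miR-216a-3p and miR-216c-5p entered with their floor value in the control library. Only miR-217-3p, with 13 and 21 counts, was counted in both. All members of the islet, brain and gut lists were counted in both libraries, and the part of these tissues in the levels of the pancreas miRNAs was not tested.

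The listed liver and erythroid miRNAs, which made up much of both libraries, also differed. The liver miRNA miR-122-5p had a ratio of 1.71 (1.70 to 1.71), 109463 CPM in the control library and 186751 CPM in the iFIRKO library, and this ratio too was below the TMM divisor of 1.81. The 5 erythroid miRNAs summed to 305085 and 221484 CPM, a ratio of 0.726, and all 5 were lower on the deposited scale and over 1.5-fold lower with TMM. Of these sums, miR-16-5p alone held 260382 and 190830 CPM, so the sums and their ratio rest mainly on it. On the deposited scale the most abundant were miR-16-5p at 0.733, miR-486b-5p at 0.732 and miR-486a-5p at 0.700. The 2 that were over 1.5-fold lower, named afterwards, were miR-451a (0.409) and miR-144-3p (0.506). For these the deposited direction is opposite to that described by the study, as stated at the outset. Since shares of a library sum to a fixed total, these differences enter the ratio of every member, and their part was not tested.

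The miRNAs most like the 2 abundant members were found by the Euclidean distance of log2 CPM over both libraries. Nearest to miR-375-3p were miR-503-3p (distance 0.048), miR-872-5p (0.11) and miR-98-5p (0.17). Nearest to miR-7a-5p were miR-141-3p (0.060, also in the gut and epithelial list), miR-133b-3p (0.24) and miR-101c (0.25). Over 2 libraries, the distance measures a level and a ratio and no more.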

How the data were processed

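Small RNA libraries of serum EVs, 1 per group, were prepared by the authors with a QIAseq miRNA kit from pooled serum, sequenced on a NextSeq500 and analysed on the GeneGlobe Data Analysis Center. The submitters' processing notes name the build mm10, and the aligner, the miRNA release and the use of molecular identifiers are not given in the sources used here. The deposited values are a normalized signal per miRNA. Of the values, 100% came within 0.01 of a whole count when multiplied by 1 whole number per library, which was taken as its depth (3817902 and 2233498), and counts were recovered that way. No count from 2 to 9 was present, so the lowest value was treated as a floor under 10 counts.

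Ratios are on the deposited scale with no pseudocount. Intervals are Wilson (shares) or exact Clopper-Pearson (ratios), and conditional exact (odds ratio) for changes of quotients, at 95%, computed with scipy 1.17.1 in Python 3.11.15. The interval of a ratio was run on simulated data that held counting error only. That run checks the computation and says nothing of the spread between mice or libraries. No count test was run, because 1 library per group leaves no spread to estimate. TMM factors came from edgeR 4.0.16 in R 4.3.3. Sequences were matched by miRNA name in RefSeq (GRCm38.p6) and loci were taken from GENCODE M21 (GRCm38). The members and the 6 other lists (other arms and paralogs, other islet, brain and neuroendocrine, gut and epithelial, liver, erythroid) were chosen with earlier results of these data known. Named were all members, their other arms and paralogs, the 3 most abundant of each other list, the 3 miRNAs nearest to each member with a mean count of at least 100, and miR-148a-3p. Alternatives were 4 scalings, a pseudocount of 1 CPM, the floor set to 10 counts, filters at a mean count of 10 and 100, and a 2-fold threshold.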

Additional observations from a re-analysis of the deposited data

How the results depend on the processing

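No paired analysis was possible because neither genotype had more than 1 library, and for that reason no library could be left out. With the median of ratios, 2 members were over 1.5-fold higher and 2 lower instead of 4 and 1, with miR-148a-3p also 2 and 2, and with TMM 1 and 4. Keeping members that averaged 100 counts or more left 2, of which 0 were higher and 0 lower. A 2-fold threshold gave 2 and 0. The median log2 ratio went from 0.27 to -0.59 with TMM. The ratio of the summed islet miRNAs went from 0.891 to 0.741 (median of ratios), 0.765 (miR-148a-3p) and 0.493 (TMM). With TMM the summed acinar miRNAs reversed to 0.851, miR-216a-5p to 0.848, miR-217-5p to 0.936 and the bound of miR-216b-5p to 0.946. The TMM intervals of miR-216a-5p and miR-217-5p included 1. These shifts follow from 1 factor applied to every miRNA. Equal totals, the pseudocount and the floor at 10 counts changed no direction. The floor taken as 10 counts, or members at the floor left out, gave 1.48 and 1.47 for the acinar sum, which was 1.54, and without miR-216b-5p 3 members were higher. These settings were chosen after seeing the data. Depth limits miR-375-5p, miR-216b-5p and miR-216c-3p most, each at 32 counts or fewer in both libraries.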
